A study of Mus musculus with 6 samples.

Results

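The expression of all genes was compared between thyroid organoids in which an oncogenic Braf had been switched on and which then received a MEK and a PI3K inhibitor (PD+LY) and organoids in which it was never switched on (cAMP). The comparison uses 4 of the 6 libraries of the study, 2 per group. The 2 remaining libraries (4OHT, Braf switched on without inhibitors) give the level without inhibitors and were also collected at day 31 of the protocol. Whether the groups were grown side by side is not stated. The organoids came from mouse embryonic stem cells of the G4 RosaLuc line, into which TRE-Nkx2-1-Pax8 and bTg-NES-BrafV637E-ERT2 had been placed. In these cells doxycycline turns on Pax8 and Nkx2-1, which specify thyroid cells, and 4-hydroxytamoxifen (4OHT) activates a BrafV637E protein fused to an estrogen receptor domain and driven by a bovine thyroglobulin (bTg) promoter.

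All groups carried the same genotype, had passed through the doxycycline step and stayed in 8-Br-cAMP, a cell-permeable form of the second messenger of thyrotropin. The cAMP group received no 4OHT, the 4OHT group received 1 µM 4OHT, and the PD+LY group received 1 µM 4OHT with 250 nM PD0325901 (MEK inhibitor) and 5 µM LY204002 (PI3K inhibitor), and all were collected at day 31. The labels give 5 days of 4OHT for the 4OHT group and 3 days of 4OHT with the inhibitors for the PD+LY group. In the study's inhibitor screen 4 days of 4OHT came first, and whether that held for these libraries is not stated, so the total time in 4OHT may differ between the groups. No library was taken at the time the inhibitors were added. PD+LY and cAMP organoids differ by Braf induction and by the inhibitors at once. No library received the inhibitors without 4OHT, so an effect of the drugs on uninduced cells and an effect on induced cells cannot be told apart. BrafV637E is driven by a thyroglobulin promoter, whereas the inhibitors were added to the whole organoid culture, and neither the cells that carried the protein nor the cells the inhibitors reached were measured in these libraries. Each library pooled at least 3 wells of follicle-enriched organoids of this line, and no source used here says that the replicates came from separate differentiations, so the p values measure the spread between these samples only.

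The RAF, MEK and ERK kinases form a cascade that carries growth factor signals to the nucleus, and phosphatases and Sprouty proteins induced by ERK dampen it again. PI3K works beside it and keeps the FOXO transcription factors out of the nucleus. In thyroid cells thyrotropin acts through cAMP to maintain iodide uptake and hormone synthesis, and high ERK output is known to lower the genes of that programme.

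The 6 libraries held 14898409 to 20637959 counts, and 1 count corresponded to 0.0486 to 0.0667 CPM, the count relative to the library total after scaling with TMM factors. On average over the 15256 tested genes, the 2 cAMP libraries differed by 0.403 (root mean square difference of log2 CPM), the 2 PD+LY libraries by 0.453, and pairs of 1 cAMP and 1 PD+LY library by 0.770 to 0.804. Tg, which encodes the thyroid hormone precursor thyroglobulin, lay between 514 and 1870 CPM in the 6 libraries, and Pou5f1, a pluripotency factor, between 627 and 786 CPM, so the libraries labelled as organoids from embryonic stem cells held both thyroid and pluripotency transcripts. Of 13 macrophage genes only 5 were high enough to be tested. In bulk RNA, fewer cells of a type and less RNA per cell cannot be told apart.

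A gene is called differentially expressed (DEG) when it differs by at least 2-fold with an adjusted p under 0.05, from the quasi-likelihood test of edgeR with Benjamini-Hochberg adjustment over all tested genes, which gave every adjusted p below. PD+LY organoids differed from never-induced organoids in 1409 DEGs, which is 9.24% of the tested genes. Of all tested genes, 457 were higher (3%) and 952 lower (6.24%) in PD+LY, and these shares are the background for the counts of list members below. Differences of at least 4-fold counted 112 higher and 361 lower genes, and those of at least 8-fold 29 higher and 152 lower. Conversely, 10196 genes (66.8%) had a 95% interval that lay wholly within a 2-fold change, and 3651 genes were neither DEGs nor bounded in this way. With the adjusted p alone, without the fold threshold, 1840 genes were higher and 2085 lower.

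**Figure D1:**
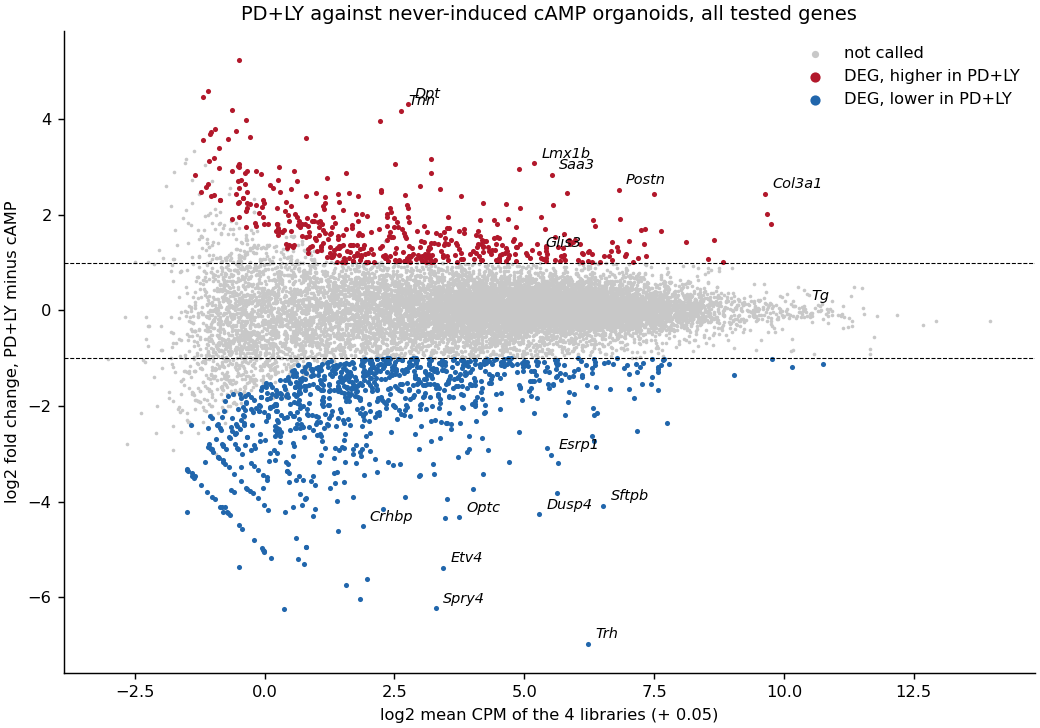
Log2 fold change of PD+LY minus cAMP (vertical axis) against the log2 mean CPM of the 4 libraries plus 0.05 (horizontal axis) for each tested gene, without genes that had no count in 1 group. The dashed lines mark a 2-fold change, and the 952 lower DEGs reach further from 0 than the 457 higher ones, with Trh the farthest of the labelled genes at -6.97.

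The thyroglobulin gene Tg lay near the never-induced level. It was measured at 1566 and 1022 CPM in cAMP, 514 and 693 CPM in 4OHT, and 1870 and 907 CPM in PD+LY. Its PD+LY and cAMP values overlapped, with a log2 fold change of 0.10 ± 0.27 (SE, n = 2 libraries per group) and a 95% interval of -0.49 to 0.70, and the 2 PD+LY libraries lay far apart. By the definition given below, Tg was a returned gene.

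The sodium iodide symporter gene Slc5a5 was at 6.10 and 6.87 CPM in cAMP, 2.60 and 3.84 in 4OHT, and 8.96 and 7.10 in PD+LY. With 4OHT its log2 fold change against cAMP, -0.999 ± 0.26 (adjusted p = 0.034), lay just under the 2-fold threshold. PD+LY stood above 4OHT by 1.30 ± 0.25 (adjusted p = 0.0037, a DEG). Against cAMP, PD+LY had a log2 fold change of 0.30 ± 0.24 with an interval of -0.21 to 0.82. The cAMP and PD+LY groups did not overlap, which held for 9372 of the 15256 tested genes (61.4%), and the difference did not pass the test. Tshr, the thyrotropin receptor gene, was at 6.92 and 5.41 CPM in cAMP, 1.67 and 3.95 in 4OHT, and 13.2 and 11 in PD+LY. Its log2 fold change of 0.98 ± 0.29 against cAMP (adjusted p = 0.026) lay just under the 2-fold threshold. Iyd, which encodes the enzyme that recovers iodide from iodotyrosines, did pass. It was at 10.4 and 7.31 CPM in cAMP, 3.80 and 6.31 in 4OHT, and 23.5 and 13.5 in PD+LY (log2 fold change 1.07 ± 0.29 against cAMP, adjusted p = 0.017). Kcne2, a subunit of a thyroid potassium channel, rose from 1.38 and 0.975 CPM in cAMP to 3.01 and 4.18 CPM in PD+LY (1.62 ± 0.39, adjusted p = 0.0096), with 0.734 and 1.21 CPM in 4OHT.

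Over the whole list of hormone synthesis genes, 2 of 14 tested members were higher DEGs and 0 were lower, and the median log2 fold change was 0.20, beside 0.00492 over all tested genes. Iyd and Kcne2 were the higher ones. Of the 14 members, 8 had a positive and 6 a negative log2 fold change. Ano1, a further member, was at 5.35 and 7.85 CPM in cAMP, 3.20 and 4.55 in 4OHT and 4.43 and 2.53 in PD+LY. Its log2 fold change of -0.93 ± 0.32 against cAMP (adjusted p = 0.049) lay just under the 2-fold threshold. Without cAMP replicate 2, 0 members were called higher, and without PD+LY replicate 1, 1 was higher and 1 lower. Only 3 of the 14 members had an interval within a 2-fold change. Duox2, which makes the hydrogen peroxide for iodination, was at 2.01 and 1.02 CPM in cAMP, 0.867 and 1.10 in 4OHT and 1.07 and 0.340 in PD+LY, with an interval of -2.39 to 0.20 for PD+LY minus cAMP, and it was not called with 4OHT either.

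Among the thyroid transcription factors, Nkx2-1 (13.8 and 13.3 CPM in cAMP, 15.1 and 11.1 in PD+LY) and Pax8 (15.2 and 15.2, 17.6 and 13.7) had overlapping groups. These reads sum the endogenous genes and the doxycycline-driven copies, as far as both map to the same symbol. Glis3, a factor needed for hormone synthesis, rose from 25.1 and 21.7 CPM in cAMP to 56.4 and 51.3 CPM in PD+LY, a log2 fold change of 1.21 ± 0.13 with adjusted p = 5.6e-05, while the 4OHT libraries stood at 25.9 and 23.8 CPM. Foxe1 also rose, from 1.57 and 2.19 to 4.43 and 3.26 CPM, with a log2 fold change of 1.01 ± 0.34 and an adjusted p of 0.044, at the edge of both thresholds. In all, 2 of 8 tested factors were higher DEGs and 0 lower, and 1 was with DESeq2 and without any 1 library other than PD+LY replicate 2.

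**Figure D2:**
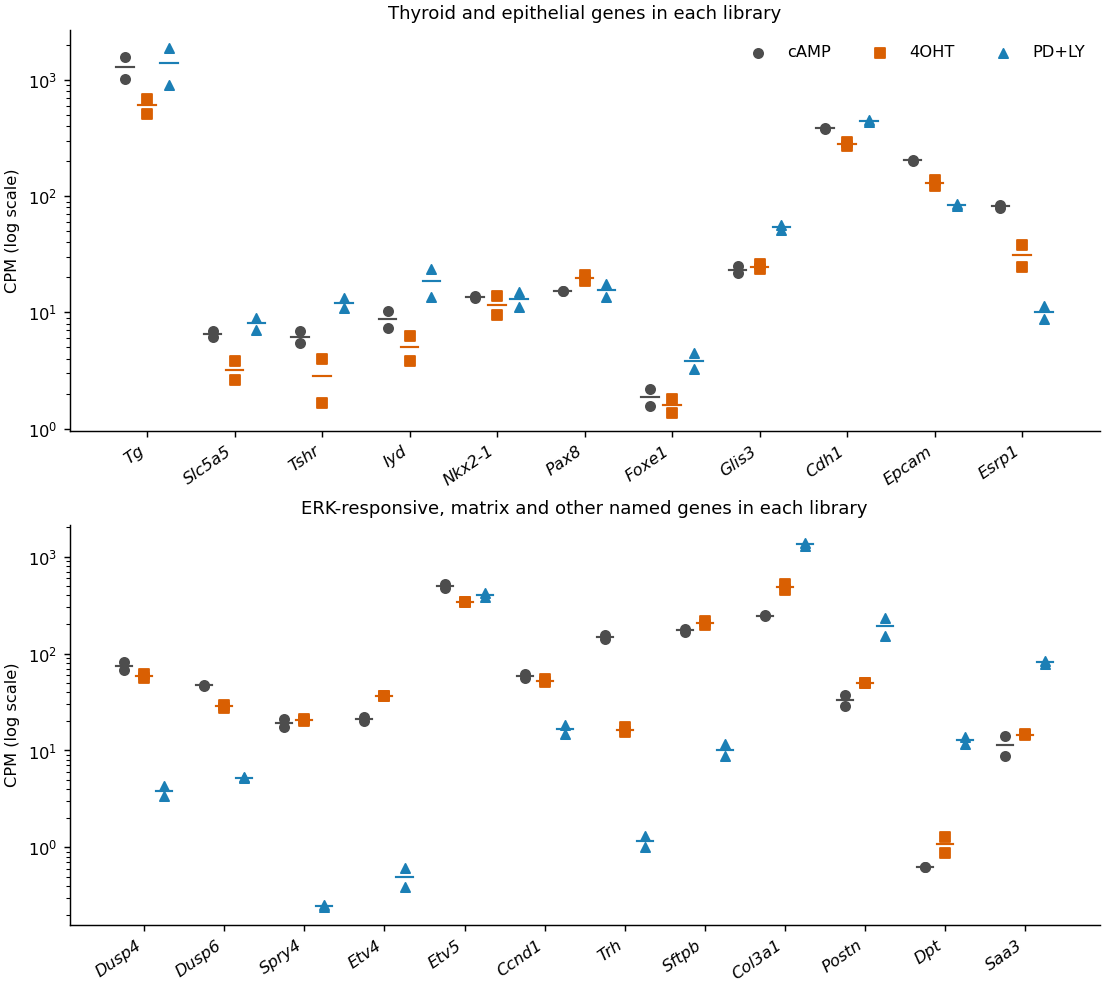
CPM of 23 genes on a log axis, with 1 point per library and short bars for the group means (cAMP circles, 4OHT squares, PD+LY triangles, n = 2 each). Tg overlaps between PD+LY and cAMP, whereas Spry4, Etv4, Dusp4 and Trh lie far below cAMP and Col3a1, Dpt and Saa3 far above it in both PD+LY libraries.

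Beyond the synthesis genes, 3 of 10 tested genes of hormone metabolism and transport were DEGs. Of the 10, 5 had a positive and 5 a negative log2 fold change. Trh, which encodes thyrotropin-releasing hormone, was at 142 and 154 CPM in cAMP, 15.4 and 17.4 CPM in 4OHT and 1.32 and 1.02 CPM in PD+LY. It fell with 4OHT and fell again in PD+LY, to 126-fold below cAMP (log2 fold change -6.97 ± 0.21, adjusted p = 7.0e-10), and the 3 groups did not overlap. Crym, a cytosolic thyroid hormone binding protein, fell from 4.09 and 5.56 to 0.407 and 0.195 CPM (-3.99 ± 0.50, adjusted p = 6.2e-05). Dio3, the deiodinase that inactivates thyroid hormone, rose from 2.64 and 1.41 to 7.74 and 8.36 CPM (2.01 ± 0.31, adjusted p = 0.00059). The transporter gene Slco1c1 (0.965 ± 0.19, adjusted p = 0.0035) and the deiodinase gene Dio2 (0.935 ± 0.21, adjusted p = 0.0066) lay just under the 2-fold threshold. Dio1, a further deiodinase gene, was at 0.967 ± 0.35 and did not pass the test (adjusted p = 0.062). Ttr was higher by 0.35 ± 0.08 (adjusted p = 0.0096), with an interval within a 2-fold change.

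Genes induced by ERK signalling lay mostly below the never-induced level. Of 34 tested ERK feedback and target genes, 16 were lower DEGs and 1 was higher, with a median log2 fold change of -1.14. In the same list 2 genes were higher DEGs with 4OHT alone and 0 lower, and 19 were lower in PD+LY than in 4OHT. The count of lower genes stayed between 15 and 17 when each library was left out in turn.

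Spry4, a Sprouty feedback inhibitor of receptor signalling, was at 21.3 and 17.3 CPM in cAMP, 21.1 and 20.1 in 4OHT, and 0.255 and 0.243 in PD+LY, which are 5 counts in each of the 2 libraries. The log2 fold change of PD+LY minus cAMP was -6.24 ± 0.41 (75.4-fold lower, adjusted p = 6.8e-08), and the cAMP and 4OHT values overlapped. Etv4, an ETS transcription factor of the PEA3 group, was at 22.1 and 20.0 CPM in cAMP, 36.8 and 36.6 in 4OHT, and 0.611 and 0.389 in PD+LY, 41.7-fold below cAMP (-5.38 ± 0.30, adjusted p = 5.5e-08). It was thus highest with 4OHT and lowest with the inhibitors, without overlap between any groups. Dusp4, a nuclear phosphatase of ERK, fell from 67.5 and 80.9 CPM in cAMP to 3.41 and 4.28 CPM in PD+LY (-4.27 ± 0.17, adjusted p = 3.9e-08), and the cytoplasmic ERK phosphatase gene Dusp6 fell from 46.5 and 47.6 to 5.14 and 5.30 CPM (-3.17 ± 0.14, adjusted p = 6.8e-08).

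The immediate early gene Egr1 fell 7.10-fold, from 5.79 and 7.65 to 0.917 and 0.973 CPM, and Fos 2.17-fold, from 10.1 and 8.97 to 3.67 and 5.06 CPM. Ccnd1, which encodes the G1 cyclin D1, fell from 56.5 and 61.6 to 18.4 and 14.8 CPM (-1.83 ± 0.13), and Myc fell 2.23-fold. Jund, an AP-1 subunit, was the member that rose, from 19.1 and 31.3 to 45.5 and 63.3 CPM (1.10 ± 0.21, adjusted p = 0.0031), a call that was lost without cAMP replicate 1 and without PD+LY replicate 2. Etv5, another gene of the PEA3 group, stood apart from Etv4. It was at 526 and 469 CPM in cAMP and 385 and 424 CPM in PD+LY (-0.30 ± 0.09, interval -0.50 to -0.10), which bounds its difference within 2-fold. Egr3 had 4 and 10 counts in the cAMP libraries and 0 in both PD+LY libraries, which makes it at least 2.47-fold lower against a floor of 3 counts per library.

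Of 27 FOXO target genes, which PI3K signalling keeps low in many cells, 1 was a higher DEG and 1 lower. That is 7.41%, near the 9.24% of all tested genes, and 22 had an interval within a 2-fold change. Sod2, a mitochondrial superoxide dismutase, rose from 76.9 and 75.0 to 178 and 166 CPM (1.18 ± 0.10, adjusted p = 1.1e-05), and Ccng2 fell from 51.0 and 52.0 to 22.7 and 20.4 CPM (-1.26 ± 0.13). Irs2 and Insr, 2 further targets, had log2 fold changes of -0.53 and -0.28 and were not called.

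The 408 DEGs of 4OHT against cAMP (2.67% of tested genes, 178 higher or 1.17% and 230 lower or 1.51%) were each followed into PD+LY. A 4OHT DEG was termed left over when it was also a DEG of the same sign in PD+LY against cAMP, overshoot when it was a DEG of the opposite sign, and returned when it was no DEG and its 95% interval lay within a 2-fold change of cAMP. The rest were undetermined. Both comparisons share the cAMP libraries, so an error in these raises or lowers both together, and the counts are read as a description. By this rule 226 genes (55.4%) were left over, 16 (3.92%) overshot, 72 (17.6%) returned and 94 (23%) were undetermined. Of the undetermined genes, 73 had an interval that reached past 2-fold only on the side of the 4OHT change. In the direct test of PD+LY against 4OHT, 41 of the 72 returned genes were DEGs toward cAMP and 31 were not called, so a return names a level near cAMP and not always a called difference from 4OHT. Of the returned genes 14 still had an adjusted p under 0.05 against cAMP, and 30 of the undetermined genes were DEGs toward cAMP.

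The counts are given by direction without a test. Among genes that 4OHT had lowered, 151 of 230 (65.7%) were left over and 33 (14.3%) returned, and among genes that 4OHT had raised, 75 of 178 (42.1%) were left over and 39 (21.9%) returned. The overshoot genes comprised 15 genes raised by 4OHT and 1 lowered by it. The counts depend on the number of 4OHT DEGs: without 4OHT replicate 1 there were 164 of them and 92 left over, and without 4OHT replicate 2 there were 221 and 134. Returned genes numbered 31 to 41 without any 1 of the cAMP or 4OHT libraries. The share left over stayed between 47.3% and 61.2% when each library was left out in turn.

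In the direct comparison of PD+LY against 4OHT, which called 1107 genes (7.26%, with 359 or 2.35% higher and 748 or 4.9% lower), 39 of the 226 left-over genes were DEGs further away from cAMP, 1 was a DEG in the direction of cAMP, and 186 were not called. Of the 226 genes, 83 had a 95% interval within a 2-fold change of 4OHT, 127 had one that reached past it and 16 had none, so for most of them a level equal to that with 4OHT was not shown. Lmx1b, a LIM homeobox transcription factor, was at 7.55 and 7.85 CPM in cAMP, 26.2 and 26 in 4OHT, and 55.2 and 75.3 in PD+LY. It rose with 4OHT (1.76 ± 0.17) and rose further in PD+LY (3.08 ± 0.17 against cAMP, adjusted p = 3.6e-07; 1.32 ± 0.15 against 4OHT, adjusted p = 0.00015). Tuba3b, an alpha-tubulin gene, went from 5.85 and 7.70 CPM in cAMP to 26.5 and 34.6 in 4OHT and 48.7 and 57.3 in PD+LY (2.96 ± 0.18 against cAMP). Spic, an ETS family transcription factor, was at 2.52 and 1.95, at 5.00 and 5.43, and at 15.7 and 16.6 CPM in the 3 groups in that order. The groups of these 3 genes did not overlap.

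Tnn, which encodes the matrix protein tenascin-W, rose from 0.755 and 0.536 CPM in cAMP to 15.5 and 7.73 CPM in PD+LY (4.18 ± 0.45, adjusted p = 2.5e-05), with 2.47 and 2.36 CPM in 4OHT. The predicted genes C130021I20Rik and Gm1141 were left over as well, 8.34-fold and 7.38-fold above cAMP.

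Among the left-over genes that were lower, Cer1, a secreted antagonist of Nodal and BMP signals, had 104 and 308 counts in the cAMP libraries, 0 and 2 in 4OHT and 0 in both PD+LY libraries. It was at least 72.2-fold lower in PD+LY than in cAMP, against the floor of 3 counts per library, and at least 43.8-fold lower when cAMP replicate 2 was left out of the mean. Fndc3c1, a fibronectin type III domain gene, fell from 5.85 and 9.41 CPM in cAMP to 0.667 and 0.987 in 4OHT and 0.102 and 0.195 in PD+LY (-5.62 ± 0.66, adjusted p = 1.1e-05). Slc23a1, a vitamin C transporter gene, stepped down from 9.75 and 8.38 to 3.07 and 4.11 and then to 0.509 and 0.486 CPM. The secreted-protein gene Dcpp2 fell 20.3-fold, and since Dcpp1 is its near copy and shares exon positions with it, how the reads were split between them is uncertain. The predicted gene 2610528J11Rik fell 15.5-fold. Vrtn and Spink1 were also left over, with 2 counts in each PD+LY library for both and values of 6.54 and 7.36 CPM and of 4.47 and 6.92 CPM in cAMP.

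**Figure D3:**
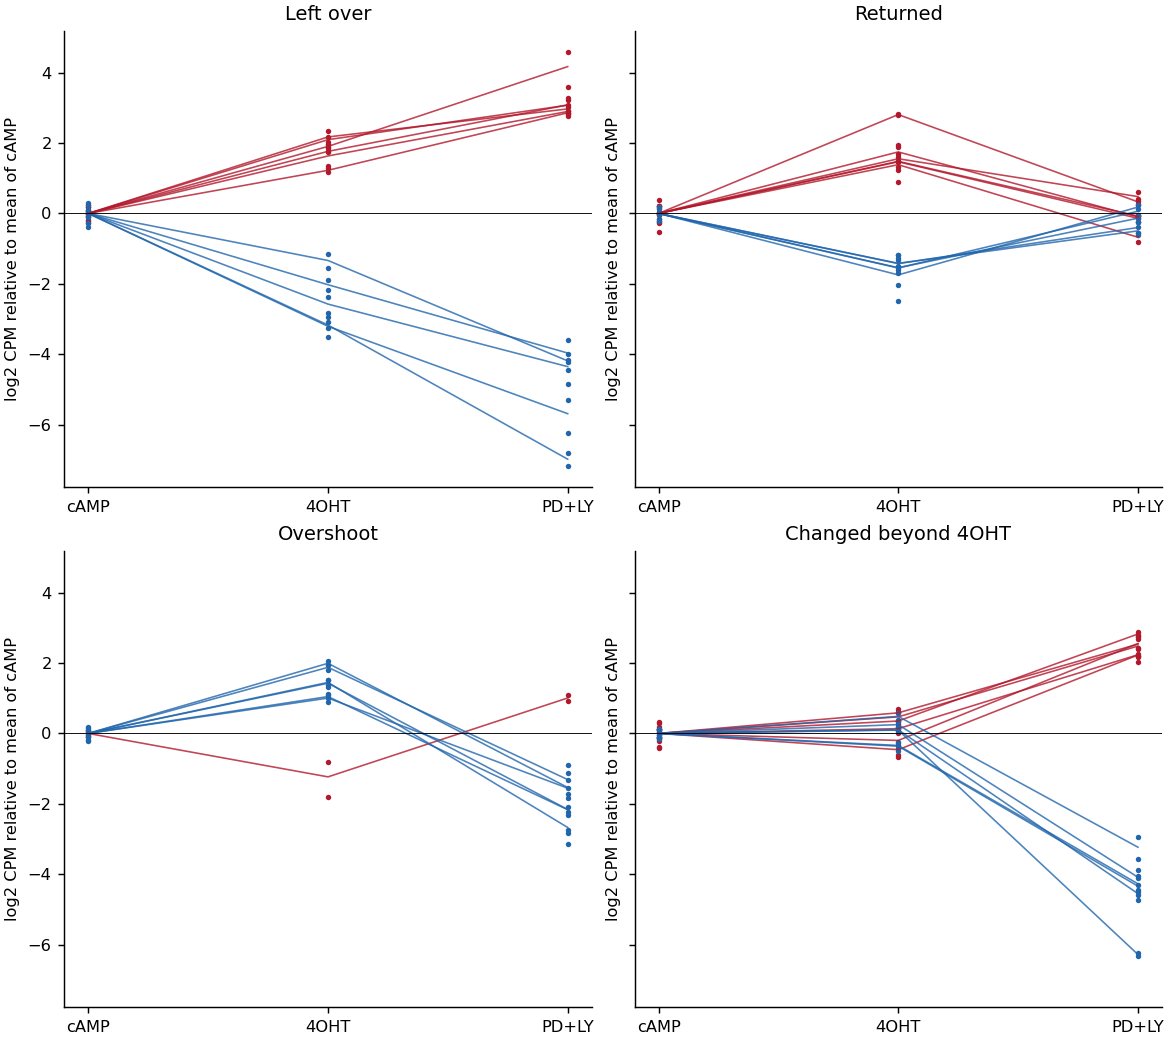
Log2 CPM relative to the mean of the cAMP libraries (vertical axis) in the 3 groups (horizontal axis) for the named genes of each class, with points for single libraries and lines through the group means. Red marks genes above and blue genes below cAMP in PD+LY, except in the panel of returned genes, where red genes had been raised and blue ones lowered by 4OHT, and Cer1 is left out because it had no count in 3 of the libraries.

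Of the overshoot genes, Emp1, an epithelial membrane protein gene, was at 18.5 and 17.2 CPM in cAMP, 46.2 and 51.2 in 4OHT, and 3.57 and 2.04 in PD+LY, 6.37-fold below cAMP (-2.67 ± 0.22, adjusted p = 7.0e-06). Areg, which encodes the EGF receptor ligand amphiregulin, was at 10.1 and 9.50, at 30.4 and 35.5, and at 5.04 and 3.84 CPM in cAMP, 4OHT and PD+LY (-1.14 ± 0.19 for PD+LY minus cAMP, adjusted p = 0.0011). For both genes all 4OHT values lay above and all PD+LY values below those of cAMP.

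Slpi, a secreted protease inhibitor, fell to 3.06 and 1.41 CPM from 10.6 and 9.41 in cAMP, with 21.1 and 20.2 in 4OHT. The same order held for Iqca (4.42-fold below cAMP) and Osgin1, an oxidative stress response gene (2.94-fold). Gdf15, a stress-induced hormone, and Nupr1, a stress-induced chromatin protein, lay 2.29-fold and 2.04-fold below cAMP. Ereg, the EGF receptor ligand epiregulin, was at 2.58 and 1.95 CPM in cAMP and 1.22 and 0.340 in PD+LY (-1.53 ± 0.46, adjusted p = 0.026). This call was lost on the 4 libraries of PD+LY and cAMP alone, with edgeR (adjusted p = 0.076) and with DESeq2 (adjusted p = 0.12). It was also lost without cAMP replicate 1 and without PD+LY replicate 2. Ubap1l fell 2.48-fold, and with DESeq2 on the 4 libraries alone its call was lost (adjusted p = 0.0508). Smoc2, a matricellular calcium-binding protein gene, was the exception in direction, with 6.35 and 5.85 CPM in cAMP, 1.73 and 3.46 in 4OHT and 13 and 11.5 in PD+LY. Its log2 fold change of 1.01 ± 0.25 (adjusted p = 0.011) sat at the threshold, and the call was lost without cAMP replicate 2 and without PD+LY replicate 1.

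The promoter of Areg is shown because it holds the full cAMP response element, TGACGTCA, 61 to 54 bases before its start site (RefSeq, GRCm38.p6, chr5:91139449-91139598, plus strand, 150 bases before the start, with the element in capitals). All organoids received 8-Br-cAMP. The element reads the same on both strands.
Areg: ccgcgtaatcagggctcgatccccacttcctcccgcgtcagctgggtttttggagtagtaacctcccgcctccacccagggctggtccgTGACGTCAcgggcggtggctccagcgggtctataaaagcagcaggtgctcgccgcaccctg
Of 26 CREB target genes, which respond to cAMP in many cells, 7 were lower and 1 higher in PD+LY than in cAMP, with a median log2 fold change of -0.29. Crhbp, which encodes a binding protein of corticotropin-releasing hormone, fell from 6.48 and 7.51 to 0.306 and 0.292 CPM (-4.52 ± 0.40, adjusted p = 3.0e-06), with 7.67 and 7.35 CPM in 4OHT. Scg2, a secretory granule protein gene, rose from 6.16 and 6.19 to 15.4 and 9.63 CPM (1.02 ± 0.23, adjusted p = 0.0062), and without PD+LY replicate 1 it was not called.

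Among the other returned genes, Aldh1a3, an enzyme that makes retinoic acid, was at 2.33 and 3.22 CPM in cAMP, 19.7 and 19.1 in 4OHT and 3.31 and 3.65 in PD+LY, with a log2 fold change of 0.31 ± 0.24 against cAMP (interval -0.20 to 0.83). Ecm1, a secreted matrix protein gene, was at 34.2 and 32.7, at 94.6 and 130, and at 32.0 and 30.5 CPM. In both genes the 4OHT values stood clear of the others. Lgals3, which encodes galectin-3, was bounded within 2-fold but stood lower than in cAMP, at 15.2 and 12.7 against 22.3 and 22.2 CPM (-0.68 ± 0.14, adjusted p = 0.0040). Sprr1a, Cidea and Gpr179 had fold changes of 1.07, 1.09 and 1.40 in either direction and also met the rule.

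Of genes lowered by 4OHT, Rragb, a subunit of the amino acid sensing Rag GTPases, was at 41.4 and 33.9 CPM in cAMP, 13.5 and 12.4 in 4OHT, and 36.7 and 32.0 in PD+LY (-0.13 ± 0.14). Bicd1, a dynein adaptor, and Hmcn1, a matrix protein, had log2 fold changes of 0.17 ± 0.31 and 0.06 ± 0.29, and their cAMP and PD+LY values overlapped. Casd1, an enzyme that acetylates sialic acids, and Gstm3, a glutathione transferase, had intervals of -0.80 to 0.00 and -0.93 to -0.07, within the bound but on its lower side.

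A further 310 of the 1409 DEGs (22%) were changed beyond 4OHT. Each of these was a DEG of the same sign against cAMP and against 4OHT, while the interval of 4OHT minus cAMP lay within 2-fold; 84 were higher and 226 lower. Without 4OHT replicate 2 the count was 177. The remaining 857 DEGs (60.8%) could not be placed, 589 because PD+LY and 4OHT did not differ by a DEG call and 268 because the 4OHT interval reached past 2-fold or the sign differed.

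Saa3, an acute phase protein gene, was at 14 and 8.82 CPM in cAMP, 14.5 and 14.7 in 4OHT and 84.2 and 77.6 in PD+LY, 7.15-fold above cAMP (2.84 ± 0.18, adjusted p = 1.2e-06). Lrrc15, a membrane protein of mesenchymal cells, was at 9.56 and 7.94, at 7.01 and 5.70, and at 42.2 and 39.8 CPM, and Cd248, a stromal cell surface protein, at 2.77 and 3.22, at 1.87 and 3.35, and at 19.4 and 15.8 CPM. In all 3 genes the PD+LY libraries stood alone. Olfml2b rose 4.72-fold and the smooth muscle gamma-actin gene Actg2 5.53-fold.

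On the lower side, Sftpb, which encodes surfactant protein B of the lung, was at 179 and 167 CPM in cAMP, 197 and 215 in 4OHT and 11.7 and 8.71 in PD+LY (-4.08 ± 0.13, 17.0-fold lower, adjusted p = 1.5e-08). Optc, a small leucine-rich proteoglycan gene, fell from 24.5 and 26.5 to 0.968 and 1.56 CPM, and Mymx, a muscle fusion peptide gene, from 10.3 and 11.6 to 0.917 and 1.41 CPM. Of 15 tested lung epithelium genes 5 were lower and 0 higher, and the count of lower genes rose without PD+LY replicate 1. All 17 genes of the list, tested or not, summed to 381 to 415 CPM in cAMP, 424 to 469 in 4OHT and 162 to 198 in PD+LY. Without Sftpb, which carried most of this drop, the sums were 214 to 235, 227 to 254 and 153 to 187 CPM in the same order. Slc34a2, a phosphate transporter gene, fell from 25.7 and 21.5 to 3.41 and 2.19 CPM (-3.07 ± 0.22), while Sftpc, the marker of alveolar type 2 cells, was at 5.72 and 1.85 against 1.38 and 0 CPM and did not pass the test (adjusted p = 0.051).

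**Figure D4:**
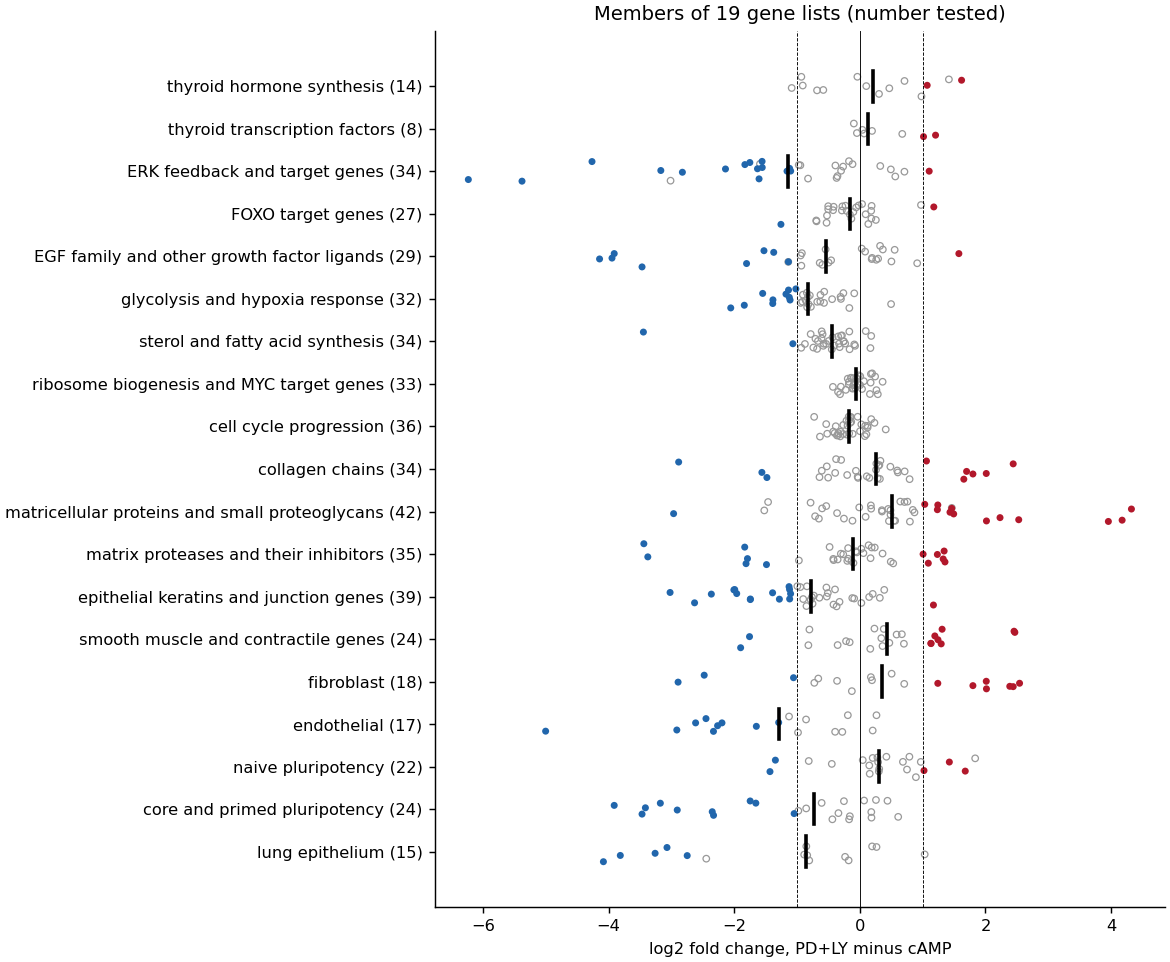
Log2 fold change of PD+LY minus cAMP (horizontal axis) for the tested members of 19 gene lists (vertical axis, with the number tested), where each point is 1 gene, filled red or blue if it is a higher or lower DEG, and the thick bars mark list medians. Genes without counts in 1 group are not drawn. ERK target genes, endothelial and epithelial genes lie mostly to the left of 0, matricellular genes to the right, and cell cycle and ribosome biogenesis genes within the dashed 2-fold lines.

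Of 34 collagen chains 6 were higher and 3 lower DEGs. Col3a1 rose from 242 and 250 CPM in cAMP to 1388 and 1286 CPM in PD+LY, with 450 and 523 CPM in 4OHT (2.44 ± 0.09 against cAMP, adjusted p = 3.9e-08). Col1a1 rose from 346 and 427 to 1429 and 1262 CPM (1.80 ± 0.10) and Col1a2 from 308 and 340 to 1448 and 1166 CPM (2.01 ± 0.10). These fibrillar collagens stood in the order cAMP, 4OHT, PD+LY without overlap. Col9a1, a cartilage collagen chain, fell from 80.2 and 72.2 to 11.4 and 9.19 CPM (-2.89 ± 0.15), and Col15a1, a basement membrane zone collagen, from 25.5 and 21.6 to 9.02 and 6.95 CPM. The basement membrane chains Col4a1 and Col4a2 had log2 fold changes of 0.30 and 0.49 and were not called.

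Of 42 tested matricellular proteins and small proteoglycans, 12 rose and 1 fell. Dpt, which encodes the collagen-binding protein dermatopontin, had the highest rise by the naming rule, from 0.629 and 0.634 CPM in cAMP to 13.9 and 11.7 CPM in PD+LY (4.32 ± 0.34, 20.0-fold, adjusted p = 2.1e-06), with 1.27 and 0.878 CPM in 4OHT. Aspn, the proteoglycan asporin, rose from 0.503 and 0.585 to 12.6 and 4.62 CPM (3.96 ± 0.56, adjusted p = 0.00017). Its gene shares exon positions with Cenpp on the other strand, and because reads were counted without regard to strand, reads of the 2 genes cannot be told apart there. Postn, the matricellular protein periostin, rose from 28.6 and 37.8 to 231 and 153 CPM (2.53 ± 0.18), and the crosslinking enzyme gene Lox from 68.8 and 69.5 to 248 and 134 CPM (1.46 ± 0.21). Mgp, the matrix Gla protein gene, was the member that fell, from 27.5 and 25.2 to 3.51 and 3.21 CPM (-2.97 ± 0.16, adjusted p = 3.4e-07). The list does not hold every such gene: the small leucine-rich proteoglycan gene Optc, given above, lies outside it and fell 20.0-fold. The values of PD+LY replicate 1 were the higher ones for Aspn, Postn and Lox.

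Matrix proteases moved in both directions, with 6 of 35 higher and 6 lower, and without PD+LY replicate 1 only 3 were higher. The higher genes numbered 4 without cAMP replicate 2, as did the lower ones without cAMP replicate 1. Mmp3, the protease stromelysin-1, fell from 17.1 and 11.9 CPM in cAMP to 1.99 and 0.681 CPM in PD+LY (-3.44 ± 0.36, adjusted p = 2.9e-05), with 20.9 and 20.9 CPM in 4OHT. Mmp10, stromelysin-2, fell from 5.03 and 4.43 to 0.509 and 0.389 CPM (-3.38 ± 0.37, adjusted p = 2.8e-05), and Mmp13, collagenase-3, from 2.70 and 1.41 to 0.560 and 0.584 CPM (-1.81 ± 0.46, adjusted p = 0.011). All 3 were lower in PD+LY than in 4OHT as well, by log2 fold changes of -3.98, -4.28 and -2.69. Mmp14, a membrane-bound protease, rose from 95.7 and 92.0 to 231 and 169 CPM (1.09 ± 0.13), and the inhibitor gene Timp2 from 62.8 and 58.2 to 164 and 121 CPM (1.23 ± 0.13).

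The promoters of the 3 falling metalloproteinase genes are shown because they lie on the same chromosome, moved together and each hold an AP-1 site, TGAGTCA or TGACTCA on the other strand, 46 to 40 bases (Mmp3), 63 to 57 bases (Mmp10) and 35 to 29 bases (Mmp13) before the start. The lines give the 150 bases before the RefSeq start on GRCm38.p6, plus strand, for Mmp3 at chr9:7445672-7445821, Mmp10 at chr9:7502192-7502341 and Mmp13 at chr9:7272364-7272513. Capitals mark the AP-1 site, and in Mmp13 also a FOXO core, GTAAACA on the other strand, 81 to 75 bases before the start.
Mmp3: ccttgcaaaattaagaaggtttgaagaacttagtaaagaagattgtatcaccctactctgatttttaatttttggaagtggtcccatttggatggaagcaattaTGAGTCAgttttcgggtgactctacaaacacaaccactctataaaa
Mmp10: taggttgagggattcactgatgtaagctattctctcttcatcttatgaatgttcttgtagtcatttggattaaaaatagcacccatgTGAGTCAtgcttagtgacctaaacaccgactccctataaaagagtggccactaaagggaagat
Mmp13: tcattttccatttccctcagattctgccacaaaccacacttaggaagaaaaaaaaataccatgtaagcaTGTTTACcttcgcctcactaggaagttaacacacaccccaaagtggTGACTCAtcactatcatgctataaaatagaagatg
In the protease list 5 of 23 genes with a promoter sequence hold this AP-1 site. Over all 11974 tested genes with a RefSeq promoter (250 bases before to 50 after the start, both strands), 549 hold it, which is 4.58%.

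Across the whole comparison the same AP-1 site was found in 21 of 337 promoters of higher DEGs (6.23%) and 36 of 692 of lower DEGs (5.2%). The ETS site CCGGAAGT was found in 4.15% of higher, 1.59% of lower and 8.12% of all promoters. The full cAMP response element was in 2.67%, 2.31% and 3.45%, the FOXO core in 1.78%, 4.34% and 3.17%, and the E-box of MYC, CACGTG, in 8.31%, 8.24% and 11.4%. A match is a description of these letters and not a bound site, and the absence of a match says nothing about the factor.

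Of contractile genes, 8 of 24 tested smooth muscle genes were higher and 2 lower. Acta2, the smooth muscle alpha-actin gene, rose from 89.4 and 115 to 254 and 194 CPM (1.13 ± 0.14, adjusted p = 0.00015), and Des, desmin, from 27.2 and 34.7 to 81.5 and 72.3 CPM (1.31 ± 0.14). Without PD+LY replicate 1 the number of higher genes was 3, and without cAMP replicate 1 it was 5. Summed over the list the level was 1093 to 1304 CPM in cAMP, 1187 to 1232 in 4OHT and 1422 to 1694 in PD+LY. The fibroblast list, which shares collagens and Dcn with the matrix lists, had 7 of 18 higher and 3 lower members and summed to 1351 to 1462 CPM in cAMP, 2381 to 2513 in 4OHT and 4120 to 4795 in PD+LY. Of its defining receptor genes, Pdgfra had a log2 fold change of -0.13 (interval -0.47 to 0.21) and Pdgfrb fell from 27.6 and 26.2 to 14.5 and 11.3 CPM (-1.06 ± 0.16). Whether the number of such cells differed was not tested.

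Of 39 tested keratin and junction genes 14 were lower and 1 higher, with a median log2 fold change of -0.78. Esrp1, an epithelial splicing regulator, fell from 79.1 and 84.3 CPM in cAMP to 24.7 and 37.7 in 4OHT and 11.4 and 8.75 in PD+LY (-3.02 ± 0.19, adjusted p = 1.3e-06), which is left over and further out. Epcam, an epithelial adhesion molecule, fell from 203 and 205 to 85.6 and 82.1 CPM (-1.28 ± 0.10), the tight junction gene Cldn7 from 23 and 29.6 to 4.94 and 3.55 CPM (-2.63 ± 0.21) and the polarity gene Crb3 from 18.7 and 26.9 to 4.13 and 4.72 CPM (-2.37 ± 0.21). Cdh1, E-cadherin, was at 389 and 382 CPM in cAMP, 269 and 292 in 4OHT and 434 and 455 in PD+LY, a log2 fold change of 0.20 ± 0.09 with an interval of 0.02 to 0.39. Dsp, desmoplakin, rose from 45.5 and 40.7 to 104 and 90.1 CPM. Crb3 shares exon positions with Dennd1c on the other strand.

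Of 17 endothelial genes 9 were lower and 0 higher, with a median of -1.29, although the sum over the list, 322 to 325 CPM in cAMP and 276 to 285 in PD+LY, is carried by Pecam1 at 135 and 128 against 148 and 155 CPM. Kdr, the main VEGF receptor gene, was at 9.94 and 10.7 CPM in cAMP, 1.53 and 2.58 in 4OHT and 3.82 and 2.77 in PD+LY (-1.65 ± 0.27, adjusted p = 0.00089), so its PD+LY values lay between the other groups. Tie1 was at 3.40 and 3.36, at 0.267 and 0.329, and at 0.306 and 0.778 CPM. Kdr and Tie1 were both left over. Of the 5 tested macrophage genes 1 was lower, and all 13 genes of that list summed to 94.2 to 95.6 CPM in cAMP and 51.1 to 51.7 CPM in PD+LY.

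Of 24 core and primed pluripotency genes 10 were lower and 0 higher, while the core factors Pou5f1 and Sox2 had log2 fold changes of 0.07 ± 0.10 and 0.18 ± 0.08 and intervals within 2-fold. Lin28a, an RNA-binding regulator of let-7, fell from 342 and 375 CPM in cAMP to 158 and 171 in 4OHT and 74.8 and 65.7 in PD+LY (-2.35 ± 0.10, adjusted p = 6.8e-08), and Pou3f1, a POU factor of primed cells, from 13.6 and 21.4 to 5.6 and 7.46 and then to 1.53 and 1.75 CPM. Of 22 naive pluripotency genes 3 rose and 2 fell. Those that rose include Dppa3, a germline and oocyte protein gene, from 68.6 and 76.1 to 230 and 234 CPM with 75.7 and 74.1 in 4OHT (1.68 ± 0.09, adjusted p = 4.9e-07), and Prdm14 from 35.7 and 31.3 to 82.5 and 97.0 CPM. The de novo DNA methyltransferase genes fell, Dnmt3b from 286 and 292 to 83.2 and 100 CPM (-1.66 ± 0.11) and Dnmt3a from 271 and 275 to 127 and 137 CPM (-1.05 ± 0.09). The maintenance enzyme gene Dnmt1 had a log2 fold change of 0.32 and was not called.

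Growth factor ligands included 8 lower and 1 higher of 29 tested. Fgf5, an FGF of primed pluripotent cells, was at 11.6 and 17.2 CPM in cAMP, 1.00 and 2.19 in 4OHT and 1.43 and 1.17 in PD+LY (-3.47 ± 0.35, adjusted p = 2.7e-05), and its 4OHT and PD+LY values overlapped. Fgf15 fell from 10.8 and 13.4 to 1.02 and 0.584 CPM (-3.91 ± 0.33), and the ERBB ligand gene Nrg1 from 11.1 and 14.3 to 4.43 and 2.87 CPM (-1.81 ± 0.25) with 12.4 and 16.3 CPM in 4OHT. Kitl, the ligand of the Kit receptor, rose from 6.16 and 4.24 to 18.9 and 11.9 CPM (1.58 ± 0.31, adjusted p = 0.0032).

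Of 32 glycolysis and hypoxia response genes 10 were lower and 0 higher, and 31 had a negative log2 fold change, with a median of -0.83. Their summed level was 25800 to 26048 CPM in cAMP, 18478 to 22059 in 4OHT and 14394 to 16031 in PD+LY. Pdk1, which restrains entry of pyruvate into mitochondria, fell from 219 and 212 to 62.3 and 57.9 CPM (-1.84 ± 0.09, adjusted p = 2.8e-07), and the glycolytic enzyme gene Pgk1 from 1597 and 1555 to 698 and 696 CPM (-1.18 ± 0.09). Ddit4, an inhibitor of mTORC1, fell from 240 and 248 to 41.7 and 42.8 CPM (-2.53 ± 0.10). Of 34 sterol and fatty acid synthesis genes 31 had a negative log2 fold change, with a median of -0.44 beside 0.00492 over all tested genes. As DEGs, 2 were lower (5.88%), near the 6.24% of all tested genes. Lss, the lanosterol synthase gene, fell from 92.8 and 90.6 to 42.6 and 44.9 CPM (-1.07 ± 0.10). All 36 cell cycle progression genes and all 33 ribosome biogenesis and MYC target genes had an interval within a 2-fold change, and 0 of them were DEGs; Mki67 had a log2 fold change of -0.31 and Top2a of -0.37.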

How the data were processed

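RNA of 6 libraries was sequenced with a stranded kit. The authors trimmed reads with Trimmomatic, aligned them to mm10 with HISAT2 on Galaxy and deposited raw counts per gene from HTSeq run without regard to strand (HISAT2 and HTSeq versions are not given in the sources used here). Reads of overlapping genes on opposite strands therefore cannot be told apart, and intervals and floors cover these libraries only.

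From these counts, 15256 of 25239 genes passed filterByExpr (minimum count 10, minimum total 15). All 6 libraries were fitted with TMM factors in edgeR 4.0.16 (R 4.3.3), with group as the only term, and the quasi-likelihood test was applied with Benjamini-Hochberg adjustment. DEGs were genes that changed 2-fold or more and whose adjusted p lay below 0.05. SEs and 95% intervals come from the fitted model. A group with 0 counts was compared through a floor of 3 counts per library. With 2 libraries a side, an exact permutation test cannot go below p = 0.3333, so none was run.

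Genes were named by rule: the 12 largest rises and falls among DEGs with at least 50 mean counts and no overlap, and the 6 largest per class and direction. All 1409 DEGs met the condition of no overlap. Members of 39 gene lists could be named with their list; some genes are not reported here. The comparison, classes and lists were chosen with earlier results of these data known. Gene positions came from GENCODE M21 (15018 tested symbols found), promoters from RefSeq on GRCm38.p6.

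On simulated counts for PD+LY against cAMP (15030 genes), edgeR called 99 of 100 genes changed 4-fold and 54 of 100 changed 2-fold (92 by adjusted p alone), with 5 false calls. The changed genes were drawn from those with a mean of at least 50 counts, so these shares do not cover genes with fewer counts. Alternatives were DESeq2 1.42.0, other scaling, filters and thresholds, the 4 libraries alone, a replicate block and leaving out each library. Same-numbered libraries deviated together with a correlation of 0.207 between cAMP and PD+LY, 0.0718 between cAMP and 4OHT and 0.0586 between 4OHT and PD+LY. Since not all were above 0.1, the numbers were not treated as pairs, although the value for the compared groups was.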

Additional observations from a re-analysis of the deposited data

How the results depend on the processing

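The 1409 DEGs numbered 1061 to 1509 under DESeq2, RLE scaling, either other filter and the 4 libraries alone. Against a 1.5-fold null (glmTreat) there were 996. Genes called both in the main fit and in an alternative kept their sign in every alternative. For DEGs that lost the call, the sign was compared only for the genes named by rule. DESeq2 called 1250 genes, 1247 of them among the 1409. With the adjusted p alone there were 3925 (1840 higher, 2085 lower), with 1280 for 4OHT against cAMP, 3469 for PD+LY against 4OHT, 730 left over, 79 overshoot, 407 returned and 1572 beyond 4OHT. Under glmTreat, 4OHT against cAMP had 147, PD+LY against 4OHT 615, and the classes held 100 left over, 7 overshoot, 19 returned and 21 undetermined. Returned genes numbered 42 with DESeq2 on the 4 libraries, overshoot genes 10 with at least 10 counts in every library, and undetermined genes 153 without a filter. The replicate block gave 1481 DEGs and 142 undetermined genes and moved no other count by over 1.5 times. With it, 4OHT against cAMP had 513 DEGs, of which 270 were left over.

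When each library was left out in turn, the DEGs numbered 1118 to 1391, those of 4OHT against cAMP 164 to 487 and those of PD+LY against 4OHT 632 to 1176. Left-over genes ranged from 92 to 253, overshoot from 8 to 17, returned from 31 to 66, undetermined from 31 to 169 and genes beyond 4OHT from 177 to 373. The low ends for 4OHT against cAMP, left over and undetermined came without 4OHT replicate 1. Those for PD+LY against 4OHT, returned and beyond 4OHT came without 4OHT replicate 2. Without any 1 of the cAMP or 4OHT libraries, returned genes numbered 31 to 41 and overshoot genes 8 to 10, and without either PD+LY library undetermined genes numbered 168 and 169. Of 50 genes chosen by the naming rule, 46 kept direction and call in each of the 15 alternatives that tested them. Named genes with under 10 counts in some library, such as Spry4 and Crhbp, were not tested under the filter of at least 10 counts in every library. Smoc2, Ereg and Ubap1l lost the call in 10 cases, and Lgals3 gained it with the adjusted p alone. The cause of these shifts was not tested. Because a call needs an estimate of at least 2-fold, changes near 2-fold are called in part only (54 of 100 simulated, 92 by adjusted p alone). With 2 libraries a side and a median SE of 0.156 (log2), lists with few calls can shift with 1 library.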
